A study of Mus musculus with 4 samples.

Results

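The genes described here are those of the tumour necrosis factor (TNF) superfamily and the NF-κB pathway on a mouse whole-genome array. They were chosen by a rule on names, set with earlier results of these data known. The rule took every gene called Tnfsf, Tnfrsf, Tnfaip or Traf with a number. To these it added Tnf, Lta, Ltb, Fas, Fasl, Cd40, Cd40lg, the NF-κB subunits, Birc2, Birc3 and Icam1. The IκB genes taken were Nfkbia, Nfkbib, Nfkbie and Nfkbiz. The choice gave 67 of the 34821 gene names on the array, measured by 93 probes. RNA was compared between islet-like clusters (2 arrays) and islets of Langerhans (2 arrays), both prepared from the pancreas of male Swiss albino mice, 10 to 12 weeks old and pooled in groups of 2 to 4. The clusters had been grown from adherent cells of the digested pancreas that the labels call MSC-like (resembling mesenchymal stromal cells) and were collected at the end of 10 days of induction. Induction used serum-free medium with albumin and insulin-transferrin-selenium in low-adherence dishes, with 0.3 mM taurine from day 3. On day 7 the medium was changed to one with 3 mM taurine, GLP-1 (an incretin hormone) and 100 mM nicotinamide. The collagenase digest that gave the adherent cells also gave the islets. By title they had spent 48 h in culture, whereas by description they were freshly isolated, and the labels do not settle which applies. Neither group carried a genetic change, and neither received TNF or another cytokine according to the labels.

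TNF superfamily ligands are made mostly as trimers on the cell surface or released from it, and they act through receptors of the TNFR superfamily. The receptors recruit TRAF adaptors and the cIAP ubiquitin ligases, which activate the IκB kinase. The kinase removes the IκB proteins, and the freed NF-κB dimers then enter the nucleus and switch on cytokine, adhesion and survival genes, among them their own inhibitors Nfkbia and Tnfaip3. In the pancreas this pathway is known chiefly from islet inflammation, in which TNF from immune cells acts on beta cells.

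Signals are given on a log2 scale relative to the 75th percentile of each array, so that 0 is the level of that percentile and a difference of 1 is a change of 2-fold. The arrays had 59.7% and 62.3% of spots well above background in the clusters and 63.6% and 61.2% in the islets, and no spot was saturated. Profiles correlated across the genes tested, each read from its brightest probe, at r = 0.985 within the clusters and r = 0.989 within the islets. Markers went only partly with the labels. Of 6 beta cell markers, 3 were well above background on both cluster arrays (Iapp, Slc2a2 and Pdx1 were not, on either), against all 6 on both islet arrays. The summed linear signal of the 6 was 5.51 and 4.40 times the 75th percentile in the clusters and 126 and 21.5 times in the islets. Acinar markers summed to 1.01 and 0.904 in the clusters and to 2690 and 4325 in the islets, so the islet samples held abundant exocrine RNA. Duct markers summed to 0.922 and 1.40 in the clusters and to 178 and 122 in the islets. Mesenchymal stromal markers summed to 629 and 527 in the clusters and to 31.5 and 36.0 in the islets, and B cell markers to 1.15 and 0.876 in the clusters and to 0.687 and 0.934 in the islets. In bulk RNA, fewer cells of a type and less RNA per cell cannot be told apart.

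Of the 67 genes, 59 were tested because both arrays of the clusters, of the islets or of each showed them well above background. Of these, 38 (64.4%) passed limma's test at an adjusted p of 0.05, 18 higher (30.5%) and 20 lower (33.9%) in the clusters than in the islets, and 31 of the 38 differed by at least 2-fold. Over all 24596 genes tested, 54.8% passed, 26.6% higher and 28.2% lower. With so large a share of all genes called, the count of calls by itself says little about the TNF and NF-κB genes, and the values below carry the description. The median difference was -0.19 over the 59 genes and -0.10 over all genes. The 8 genes not tested were the ligands Fasl, Cd40lg, Tnfsf4, Tnfsf8 and Tnfsf18, the receptor Tnfrsf17, Tnfaip8l2 and the NF-κB subunit Rel. Of these, 7 were not well above background on any array, and Rel was so on 1 cluster array only. Separate pools of mice for the samples of a group are not stated in the labels, so each p-value reflects the spread between arrays alone, and that spread may be technical.

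**Figure D1:**
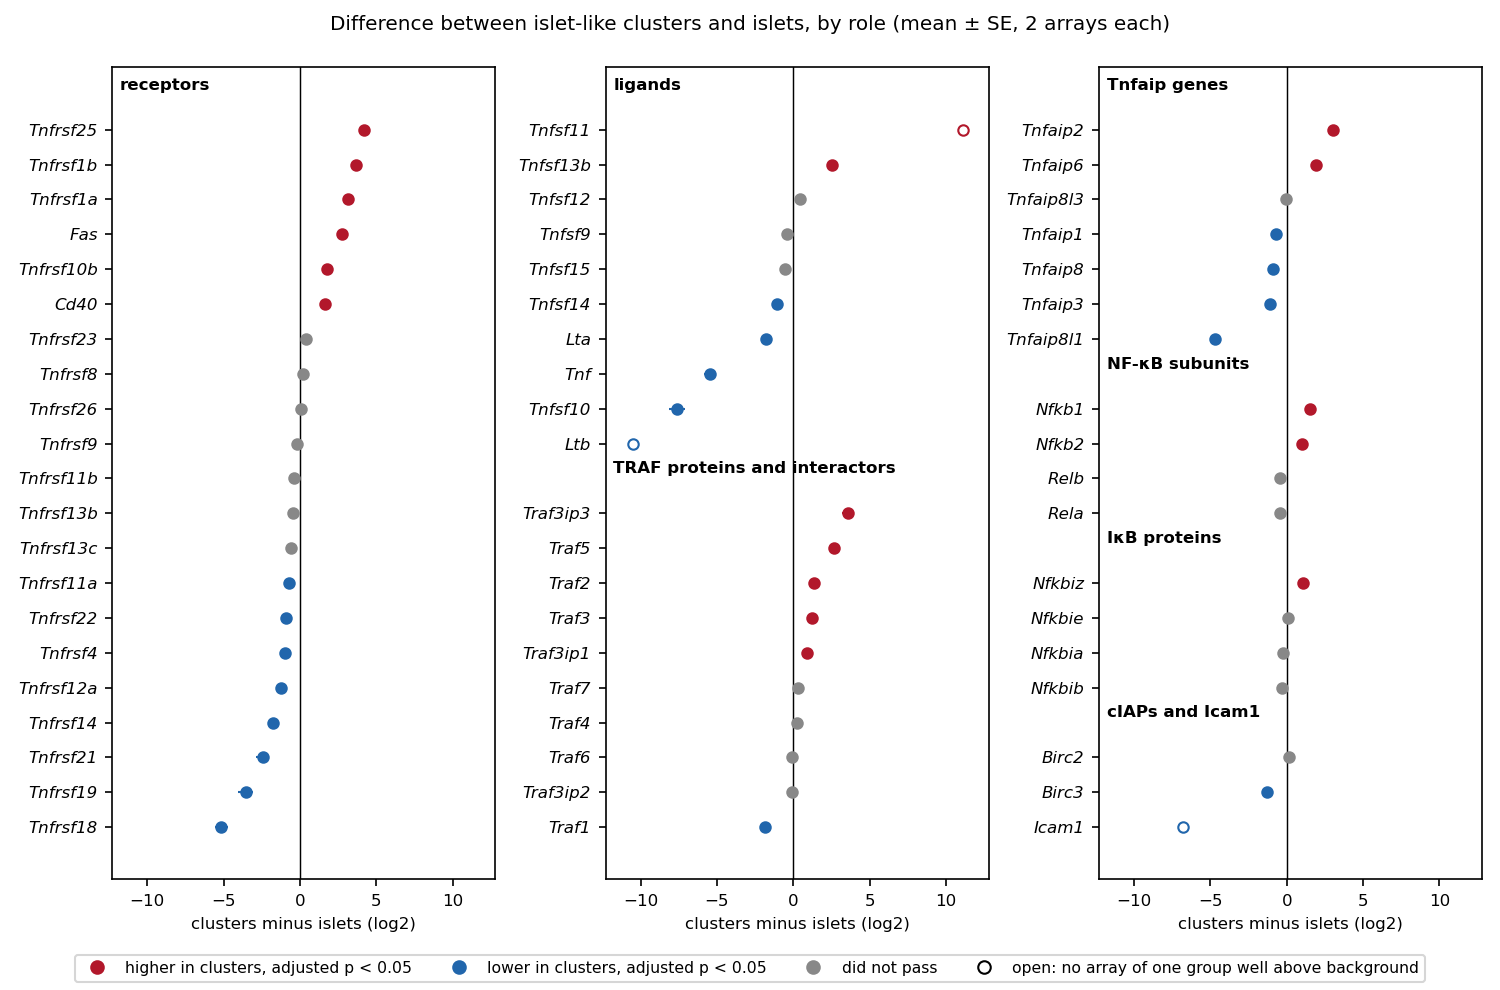
Differences in log2 signal (clusters minus islets, mean of 2 arrays each, bars are the SE of the fit) for the 59 genes tested, grouped by role. Ligands hold the widest range, between -10.50 for Ltb and 11.13 for Tnfsf11, while the IκB proteins lie between -0.32 and 1.10.

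Promoter sequence is shown first for 5 genes: Ltb, Tnf and Lta because they are neighbours in the genome and were all lower in the clusters, Tnfsf11 because it was higher by the widest margin, and Nfkbia because it is a textbook NF-κB target that did not pass the test. The windows are from RefSeq (GRCm38.p6) and span 250 bases before to 50 after the start of the gene, on its own strand. They were searched for the simple κB pattern GGGNNNNNCC on both strands, with overlapping matches counted, and the matched bases are in capitals. Ltb lies at chr17:35194257-35194556 on the plus strand, with 5 matches, all but the first of which overlap. Tnf lies at chr17:35201958-35202257 on the minus strand, with 3 matches, the first stretch being counted on both strands. Lta lies at chr17:35205302-35205601 on the minus strand, with 2 matches that overlap. Tnfsf11 lies at chr14:78307994-78308293 on the minus strand, with 2 matches. Nfkbia lies at chr12:55492598-55492897 on the minus strand, with 2 matches.
Ltb: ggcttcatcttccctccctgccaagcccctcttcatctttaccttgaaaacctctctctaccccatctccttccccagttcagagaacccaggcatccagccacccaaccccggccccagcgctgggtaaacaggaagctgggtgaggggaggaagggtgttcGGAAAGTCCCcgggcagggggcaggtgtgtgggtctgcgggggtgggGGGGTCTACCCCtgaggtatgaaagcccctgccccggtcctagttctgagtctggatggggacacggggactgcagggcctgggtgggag
Tnf: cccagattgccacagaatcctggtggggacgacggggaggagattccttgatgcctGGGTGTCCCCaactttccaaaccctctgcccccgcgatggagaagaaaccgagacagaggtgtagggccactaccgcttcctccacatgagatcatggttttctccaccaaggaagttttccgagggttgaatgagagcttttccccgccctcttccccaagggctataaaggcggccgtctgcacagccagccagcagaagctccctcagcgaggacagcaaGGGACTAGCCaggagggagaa
Lta: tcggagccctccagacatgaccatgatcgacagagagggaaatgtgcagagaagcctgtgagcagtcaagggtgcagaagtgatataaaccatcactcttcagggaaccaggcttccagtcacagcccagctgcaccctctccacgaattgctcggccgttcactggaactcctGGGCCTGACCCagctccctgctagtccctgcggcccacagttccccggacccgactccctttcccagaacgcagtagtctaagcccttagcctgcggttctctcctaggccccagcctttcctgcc
Tnfsf11: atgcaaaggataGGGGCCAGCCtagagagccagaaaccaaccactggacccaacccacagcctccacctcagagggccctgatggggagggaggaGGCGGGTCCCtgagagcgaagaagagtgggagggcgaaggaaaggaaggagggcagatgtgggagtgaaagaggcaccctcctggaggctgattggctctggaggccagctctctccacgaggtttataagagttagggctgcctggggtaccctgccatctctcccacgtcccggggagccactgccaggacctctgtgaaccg
Nfkbia: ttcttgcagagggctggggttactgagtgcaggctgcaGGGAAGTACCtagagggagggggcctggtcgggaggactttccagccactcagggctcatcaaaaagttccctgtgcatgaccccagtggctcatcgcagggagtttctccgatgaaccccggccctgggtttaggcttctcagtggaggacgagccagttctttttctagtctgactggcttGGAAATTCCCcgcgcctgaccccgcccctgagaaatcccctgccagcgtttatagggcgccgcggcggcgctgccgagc
The pattern is short and common. It was found in 53.5% of 27025 genes with a window and in 38 of 53 TNF and NF-κB genes with one (71.7%). Among the genes with a window, it was found in 12 of 14 that were higher in the clusters, 11 of 18 that were lower and 15 of the other 21. It stood before genes of both directions, such as Ltb and Tnf, which were lower, and Tnfsf11, which was higher. A match is a description of these letters and not a measured binding site.

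Ligands showed the largest differences in either direction. Of 15 ligand genes 10 were tested, and 2 were higher, 5 lower and 3 did not pass. The shares were 20% higher and 50% lower, against 26.6% and 28.2% of all genes. Tnfsf11 and Tnfsf13b were the 2 that rose. Ltb, Tnfsf10, Tnf, Lta and Tnfsf14 fell.

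Tnfsf11 (probe at chr14:78677444-78677503, mm9) encodes RANKL, the ligand that drives osteoclast formation through its receptor RANK. Its signal was 4.23 and 3.96 on the cluster arrays, against -7.28 and -6.79 on the islet arrays. Both cluster arrays were far above both islet arrays, on which the probe was not well above background. The fold is therefore given against a floor, based on the lowest well-detected signal of each array. Against that floor Tnfsf11 was at least 707-fold higher in the clusters (log2 difference of measured values 11.13 ± 0.26 SE, limma adjusted p = 4.30e-09).

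Tnfsf13b (chr8:10035561-10035620, mm9) encodes BAFF, a survival factor for B cells. Its signal was 0.36 and 0.14 in the clusters, against -2.49 and -2.11 in the islets. The groups did not overlap, and the gene was 5.84-fold higher in the clusters (log2 2.54 ± 0.25 SE, limma adjusted p = 2.22e-05). Mesenchymal stromal markers, summed above, were higher in the clusters along with both ligands (7 of 7 markers passed in that direction). Their part in the result was not tested.

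Lta, Tnf and Ltb stand side by side on mouse chromosome 17, and the probes for Ltb (chr17:35333097-35333156), Tnf (chr17:35336795-35336854) and Lta (chr17:35340275-35340334) lie within the same short stretch (mm9). Ltb encodes lymphotoxin beta, the membrane anchor of the lymphotoxin trimer that signals through Ltbr. Its signal was -6.18 and -6.15 in the clusters, against 4.25 and 4.41 in the islets. On the cluster arrays the probe was not well above background. Against the floor Ltb was at least 744-fold lower there (log2 difference of measured values -10.50 ± 0.23 SE, limma adjusted p = 3.59e-09).

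Tnf, the founding cytokine of the family, had a signal of -4.15 and -5.37 in the clusters, against 0.70 and 0.76 in the islets. The clusters lay below the islets without overlap, and 1 of the 2 cluster arrays was well above background. The log2 difference was -5.49 ± 0.36 SE (limma adjusted p = 1.56e-06), a 44.8-fold lower signal.

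Lta encodes lymphotoxin alpha, which forms a secreted homotrimer or joins Ltb on the membrane. Its signal was -3.74 on both cluster arrays, against -1.73 and -2.14 in the islets. The groups did not overlap, and Lta was 3.50-fold lower in the clusters (log2 -1.81 ± 0.25 SE, limma adjusted p = 0.000211). The next gene along, Nfkbil1 (chr17:35357121-35357180, mm9), named for its likeness to the IκB proteins, also fell (log2 -2.00 ± 0.24 SE).

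Tnfsf10 (chr3:27238508-27238567, mm9) encodes TRAIL, which triggers death receptors. Its signal was -6.82 and -4.73 in the clusters, against 1.73 and 1.96 in the islets. The 2 cluster arrays differed from each other by about 2 units, 1 of them was well above background, and both were below the islets. The log2 difference was -7.62 ± 0.54 SE (limma adjusted p = 2.51e-06). Tnfsf14, or LIGHT, a ligand of the herpesvirus entry mediator, was near the bottom of the range at -4.23 and -4.36 in the clusters, against -3.23 on both islet arrays (log2 -1.07 ± 0.23 SE, limma adjusted p = 0.00331).

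The 3 ligands that did not pass were Tnfsf12 (TWEAK; log2 difference 0.44), Tnfsf9 (a costimulatory ligand of T cells; -0.41) and Tnfsf15 (TL1A; -0.54), with limma adjusted p of 0.147, 0.161 and 0.118. Macrophage markers were lower in part beside the 5 ligands that fell. Of 8 tested markers 4 passed in that direction, and Itgam (0.40), Csf1r (-0.19), Emr1 (-0.47) and Fcer1g (-0.63) did not pass. Mrc1 and Fcgr1 were well above background on no cluster array and on only 1 islet array each. The summed signal of the 10 macrophage markers was 53.9 and 46.1 in the clusters and 161 and 190 in the islets. Cd14, at 7.01 and 7.11 on the islet arrays, made up most of the islet sums. T cell markers summed to 8.42 and 6.50 in the clusters and to 6.86 and 9.19 in the islets, with Cd3d, Cd3g and Cd2 not well above background on any array. The part of these cells in the result was not tested. With normexp background correction the ligand differences stayed in the same direction and became smaller, for example 6.40 for Tnfsf11, -6.82 for Ltb, -3.02 for Tnf, -4.32 for Tnfsf10, -0.89 for Lta and 1.72 for Tnfsf13b, and Tnfsf14 no longer passed. Leaving out cluster array 1 or 2 gave -6.10 or -4.88 for Tnf and -6.58 or -8.67 for Tnfsf10, and leaving out either islet array ended the call of Tnfsf14. Tnfsf9 passed, lower in the clusters, in 4 alternatives, and Tnfsf12 passed, higher, when arrays were scaled to their median.

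**Figure D2:**
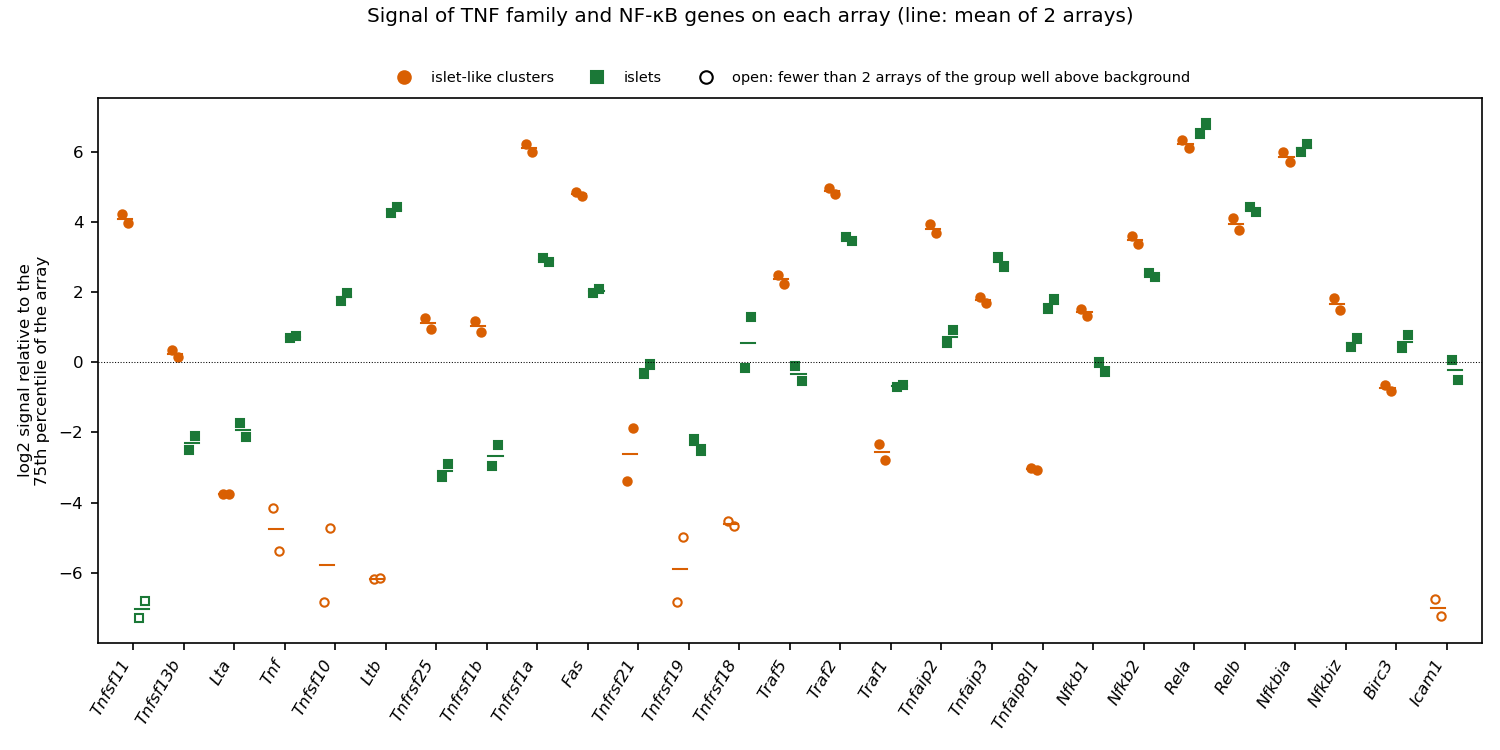
Log2 signal relative to the 75th percentile of each array, 1 point an array, for 27 genes, with islet-like clusters on the left (orange circles) and islets on the right (green squares) of each pair, and a line at each mean. Tnfsf11 is high only in the clusters and Ltb only in the islets, whereas the points of Nfkbia from both groups fall between 5.71 and 6.20.

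Receptors were split. Of 22 receptor genes 21 were tested: 6 were higher in the clusters (Tnfrsf25, Tnfrsf1b, Tnfrsf1a, Fas, Tnfrsf10b and Cd40), 8 were lower (Tnfrsf18, Tnfrsf19, Tnfrsf21, Tnfrsf14, Tnfrsf12a, Tnfrsf4, Tnfrsf22 and Tnfrsf11a) and 7 did not pass. The shares were 28.6% higher and 38.1% lower, against 26.6% and 28.2% of all genes.

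Tnfrsf1a (chr6:125311922-125311981, mm9) encodes the widely expressed TNF receptor that carries a death domain. Its signal was 6.21 and 5.98 in the clusters, against 2.98 and 2.86 in the islets. Both cluster arrays were higher, by 9.06-fold (log2 3.18 ± 0.23 SE, limma adjusted p = 3.05e-06). A dimmer probe for the same gene gave 5.18 and 4.99 in the clusters, against 3.62 and 3.52 in the islets, a log2 difference of 1.52 in the same direction. The mean of both probes was 2.35.

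Tnfrsf1b (chr4:144802359-144802418, mm9) encodes the TNF receptor that lacks a death domain and binds membrane TNF. Its signal was 1.19 and 0.87 in the clusters, against -2.95 and -2.36 in the islets. The groups were well apart, with a 12.9-fold higher signal in the clusters (log2 3.69 ± 0.27 SE, limma adjusted p = 3.38e-06). With normexp correction the difference was 2.59.

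Tnfrsf25 (chr4:151494160-151494219, mm9), the death-domain receptor for TL1A, had the largest rise among the receptors. Its signal was 1.26 and 0.95 in the clusters, against -3.27 and -2.91 in the islets, and the groups did not overlap. The fold was 18.3 (log2 4.19 ± 0.25 SE, limma adjusted p = 7.74e-07), with a log2 difference of 2.90 under normexp correction.

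Fas (chr19:34402164-34402223, mm9), the death receptor for Fas ligand, stood at 4.84 and 4.72 in the clusters, against 1.97 and 2.09 in the islets. It was higher on both cluster arrays, by 6.72-fold (log2 2.75 ± 0.23 SE, limma adjusted p = 7.47e-06). Tnfrsf10b, the mouse death receptor for TRAIL, stood at 3.81 and 3.65 in the clusters, against 1.85 and 2.06 in the islets (log2 1.77 ± 0.23 SE, limma adjusted p = 0.000172). Cd40, a costimulatory receptor known from B cells and other antigen-presenting cells, stood at 0.89 and 0.71 in the clusters, against -0.58 and -1.17 in the islets. None of these receptors had overlapping groups, and Cd40 was 3.19-fold higher (log2 1.67 ± 0.27 SE, limma adjusted p = 0.00061).

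Tnfrsf18 (GITR, a receptor known from regulatory T cells; chr4:155402941-155403000, mm9) fell the most among the receptors. Its signal was -4.53 and -4.68 in the clusters, against -0.18 and 1.28 in the islets. The islet arrays differed from each other by more than 1 unit, both were above the clusters, and 1 of the 2 cluster arrays was well above background. The log2 difference was -5.16 ± 0.41 SE (limma adjusted p = 5.54e-06), -5.88 or -4.43 without islet array 1 or 2, and -2.90 with normexp correction.

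Tnfrsf19 (TROY; chr14:61582873-61582932, mm9), a receptor known from embryonic epithelium and the nervous system, had a signal of -6.82 and -4.97 in the clusters, against -2.18 and -2.53 in the islets. Its brighter probe was not well above background on either cluster array, and a dimmer probe was so on 1 of them. By the brighter probe and against the floor, Tnfrsf19 was at least 6.90-fold lower in the clusters (log2 difference of measured values -3.54 ± 0.50 SE, limma adjusted p = 0.000257). The measured difference was -1.47 for the dimmer probe, -2.51 for the mean of both and -1.17 with normexp correction. Without cluster array 1 or 2 it was -2.62 or -4.47.

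Tnfrsf21 (death receptor DR6; chr17:43225326-43225385, mm9) had a signal of -3.37 and -1.89 in the clusters, against -0.34 and -0.04 in the islets. The cluster arrays differed by more than 1 unit, and both were lower (log2 -2.44 ± 0.42 SE, limma adjusted p = 0.000975), with -1.70 or -3.18 when cluster array 1 or 2 was left out and -1.58 with normexp correction. Tnfrsf14, a receptor for LIGHT, had -3.09 and -3.23 in the clusters, against -1.59 and -1.20 in the islets (log2 -1.76 ± 0.25 SE, limma adjusted p = 0.000241). Its other probe gave a difference of -0.10, so the fall was seen by 1 of its 2 probes. The mean of both was -0.93, and normexp correction gave -0.97.

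The other 4 receptors that fell changed by about 1 unit or little more. Tnfrsf12a, the TWEAK receptor Fn14, stood at 4.71 and 4.49 in the clusters, against 5.98 and 5.71 in the islets (log2 -1.25 ± 0.24 SE, limma adjusted p = 0.00187). Tnfrsf4 (OX40, a T cell costimulator) differed by -0.98, Tnfrsf22 (a mouse decoy receptor for TRAIL) by -0.94 and Tnfrsf11a (RANK) by -0.71, with limma adjusted p of 0.0163, 0.0112 and 0.0409. These are the weakest calls: Tnfrsf11a lost its call in each fit that left out 1 array, Tnfrsf4 and Tnfrsf22 in 3 of those 4 fits, and Tnfrsf12a without islet array 1 (limma adjusted p = 0.105). Tnfrsf4 also lost its call under each of the other scalings and with no filter on dim probes.

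The 7 receptors that did not pass were Tnfrsf23 (another TRAIL decoy receptor of the mouse; log2 difference 0.38), Tnfrsf8 (CD30; 0.18), Tnfrsf26 (0.05), Tnfrsf9 (a T cell costimulator; -0.19), Tnfrsf11b (osteoprotegerin; -0.36), Tnfrsf13b (TACI; -0.47) and Tnfrsf13c (the BAFF receptor; -0.59). Tnfrsf9 is the least settled of them because its probes disagree. The brighter probe (chr4:150319582-150319641, mm9) read 3.50 and 3.36 in the clusters, against 3.64 and 3.60 in the islets. The other (chr4:150319101-150319160) read 1.75 and 1.48 in the clusters, against -1.73 and -1.30 in the islets, a difference of 3.13. The mean of the probes differed by 1.47 (limma adjusted p = 0.000588). Averaging probes also brought Tnfrsf13b past the threshold, at -0.99 (limma adjusted p = 0.00838).

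Ligands and receptors that pair with each other differed alike in some cases and not in others. Tnfsf14 and Tnfrsf14, a receptor for it, both fell, but Tnfsf14 did not pass with normexp correction and the other Tnfrsf14 probe differed by -0.10. Tnfrsf25 rose and Tnfrsf12a fell, while their ligands Tnfsf15 and Tnfsf12 did not pass. Tnf fell while both of its receptors rose. Tnfsf10 fell, its death receptor Tnfrsf10b rose, the decoy Tnfrsf22 fell and the decoy Tnfrsf23 did not pass. Lta and Ltb fell, and Ltbr, the lymphotoxin beta receptor, had a log2 difference of 0.65 ± 0.24 SE (limma adjusted p = 0.0443), a call lost in each fit that left out 1 array. Tnfsf11 rose, whereas RANK was lower by 0.71 and osteoprotegerin, the decoy receptor for RANKL, read -1.94 and -2.06 in the clusters, against -0.99 and -2.29 in the islets. The islet arrays of osteoprotegerin spanned the cluster values, and it did not pass (log2 -0.36 ± 0.38 SE, limma adjusted p = 0.445). Tnfsf13b rose, neither Tnfrsf13b nor Tnfrsf13c passed, and the third BAFF-family receptor, Tnfrsf17, was not well above background on any array. For Fas and Cd40, which rose, the ligands Fasl and Cd40lg were not well above background on any array.

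Several receptor genes lie near each other, and some neighbours moved alike. On chromosome 4 the close neighbours Tnfrsf4 and Tnfrsf18 were both lower, whereas of the neighbours Tnfrsf1b and Tnfrsf8 Tnfrsf1b was higher and Tnfrsf8 did not pass. Elsewhere on that chromosome Tnfrsf25 was higher, Tnfrsf14 was lower and Tnfrsf9 did not pass. On chromosome 6, Tnfrsf1a and Ltbr (chr6:125256614-125256673) were both higher, and their neighbour Cd27 (chr6:125183200-125183259, mm9), a T cell costimulator, was lower (log2 -1.80 ± 0.28 SE). On chromosome 7, Tnfrsf22 was lower, and Tnfrsf23 and Tnfrsf26 did not pass.

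TRAF adaptors and proteins that bind them were all tested. Of these 10, 5 were higher (Traf3ip3, Traf5, Traf2, Traf3 and Traf3ip1), 1 was lower (Traf1) and 4 did not pass. The shares were 50% higher and 10% lower, against 26.6% and 28.2% of all genes, and 10 genes make them coarse. The median difference of the 10 was 0.58, against -0.10 over all genes.

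Traf5 (chr1:193821311-193821370, mm9), an adaptor of several costimulatory receptors, had a signal of 2.49 and 2.24 in the clusters, against -0.12 and -0.54 in the islets. It was 6.47-fold higher (log2 2.69 ± 0.25 SE, limma adjusted p = 1.76e-05), with no overlap. Traf2 (chr2:25374386-25374445, mm9), which carries the cIAPs to the TNF receptors, had 4.95 and 4.80 in the clusters, against 3.57 and 3.45 in the islets. By this probe the gene was 2.58-fold higher (log2 1.37 ± 0.23 SE, limma adjusted p = 0.000826). Its other probe differed by 1.29 but read -1.40 and 0.87 in the clusters, against -1.33 and -1.79 in the islets. The groups of that probe overlapped, and its difference rests on cluster array 2.

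Traf3, which holds the kinase Map3k14 in check in resting cells, had 4.44 and 4.29 in the clusters, against 3.17 and 3.06 in the islets (log2 1.25 ± 0.23 SE, limma adjusted p = 0.00139). Traf3ip3, a Traf3-binding protein known from lymphocytes, had -1.18 and -1.37 in the clusters, against -5.45 and -4.24 in the islets. The islet arrays differed by more than 1 unit, 1 of them was well above background, and both lay below the clusters (log2 3.57 ± 0.37 SE, limma adjusted p = 3.19e-05). Traf3ip1, a protein of the cilium, differed by 0.89 (limma adjusted p = 0.0097).

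Traf1 (chr2:34798882-34798941, mm9), itself a textbook NF-κB target, was the only TRAF gene of the 10 that fell. Its signal was -2.32 and -2.78 in the clusters, against -0.69 and -0.65 in the islets, and the groups did not overlap (log2 -1.88 ± 0.25 SE, limma adjusted p = 0.000182). Traf7, Traf4, Traf6 and Traf3ip2, an adaptor of interleukin signalling, differed by 0.28, 0.26, -0.06 and -0.09 and did not pass. Traf6 and Traf7 have further probes with larger differences, and the mean of the probes passed for both, lower for Traf6 (-0.95) and higher for Traf7 (1.01).

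With normexp correction Traf3ip3 had a difference of 1.28, Traf1 was -1.29 and Traf3ip1 no longer passed. Without islet array 2 the calls of Traf2 (limma adjusted p = 0.0513), Traf3 (0.0821) and Traf3ip1 ended, and Traf3ip1 was also lost without islet array 1 or cluster array 1, while Traf3ip3 read 2.96 or 4.18 without islet array 1 or 2.

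The Tnfaip genes, named for their induction by TNF, were of mixed direction. Of 8 genes 7 were tested, and 2 were higher (Tnfaip2 and Tnfaip6), 4 lower (Tnfaip8l1, Tnfaip3, Tnfaip8 and Tnfaip1) and 1 did not pass (Tnfaip8l3, -0.06). The shares were 28.6% higher and 57.1% lower, against 26.6% and 28.2% of all genes.

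Tnfaip2 (chr12:112692959-112693018, mm9), known for its role in membrane protrusions, had a signal of 3.93 and 3.67 in the clusters, against 0.54 and 0.92 in the islets. It was 8.38-fold higher (log2 3.07 ± 0.25 SE, limma adjusted p = 6.45e-06), and its other probe gave 3.91. Tnfaip6 (chr2:51912073-51912132, mm9), which encodes the secreted hyaluronan-binding protein TSG-6, had 1.41 and 1.24 in the clusters, against -0.62 and -0.58 in the islets. The groups did not overlap, its 3 probes gave between 1.83 and 2.01, and the gene was 3.79-fold higher (log2 1.92 ± 0.23 SE, limma adjusted p = 8.88e-05).

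Tnfaip3 (chr10:18720776-18720835, mm9) encodes A20, the ubiquitin-editing enzyme that restrains NF-κB signalling and protects beta cells. Its signal was 1.87 and 1.68 in the clusters, against 3.01 and 2.71 in the islets. The clusters were lower without overlap, by 2.12-fold (log2 -1.08 ± 0.24 SE, limma adjusted p = 0.00407).

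Tnfaip8l1 (chr17:56312297-56312356, mm9), a relative of Tnfaip8, fell the most of the group. It had -3.02 and -3.07 in the clusters, against 1.53 and 1.80 in the islets, a 26.1-fold lower signal (log2 -4.71 ± 0.23 SE, limma adjusted p = 2.25e-07). Tnfaip8, a regulator of cell death, differed by -0.91 and Tnfaip1, an adaptor for a ubiquitin ligase, by -0.70, with limma adjusted p of 0.00884 and 0.0303. The calls of Tnfaip8 and Tnfaip1 ended in each fit that left out 1 array, and that of Tnfaip3 without islet array 1 or 2 (limma adjusted p = 0.186 or 0.0707). The normexp difference of Tnfaip8l1 was -3.57, and the mean of the Tnfaip8 probes did not pass.

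The NF-κB subunits and the IκB proteins differed less than the ligands and receptors. Of 5 subunit genes 4 were tested, and the precursors Nfkb1 and Nfkb2 were higher in the clusters while Rela and Relb did not pass. Of 4 IκB genes, Nfkbiz was higher and Nfkbia, Nfkbib and Nfkbie did not pass.

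Nfkb1 (chr3:135247621-135247680, mm9) encodes the p105 precursor of p50, the usual partner of Rela. Its signal was 1.53 and 1.31 in the clusters, against 0.01 and -0.27 in the islets. It was 2.93-fold higher (log2 1.55 ± 0.24 SE, limma adjusted p = 0.000499), and its other probe gave 0.62. Nfkb2 (chr19:46386146-46386285, mm9) encodes the p100 precursor of the noncanonical pathway. It had 3.60 and 3.36 in the clusters, against 2.55 and 2.43 in the islets. The groups did not overlap (log2 0.99 ± 0.23 SE, limma adjusted p = 0.00582).

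Rela (chr19:5648070-5648129, mm9), the main activating subunit, had a signal of 6.32 and 6.09 in the clusters, against 6.50 and 6.81 in the islets. It did not pass, with a log2 difference of -0.45 ± 0.24 SE (limma adjusted p = 0.148). Relb, the partner of p52 in the noncanonical pathway, had 4.10 and 3.78 in the clusters, against 4.42 and 4.28 in the islets (log2 -0.41 ± 0.24 SE, limma adjusted p = 0.180). Both cluster arrays were a little below both islet arrays for each of these genes. Rel, the subunit known from lymphocytes, had -5.94 and -4.64 in the clusters, against -6.75 and -6.45 in the islets, and was not tested.

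Nfkbia (chr12:56590945-56591440, mm9) encodes IκBα, which NF-κB itself induces. Its signal was 5.98 and 5.71 in the clusters, against 5.98 and 6.20 in the islets. The groups met at 5.98, and the gene did not pass (log2 -0.24 ± 0.24 SE, limma adjusted p = 0.413). Nfkbiz (chr16:55817859-55817918, mm9), a nuclear IκB protein needed for a subset of NF-κB targets such as Il6, had 1.82 and 1.50 in the clusters, against 0.43 and 0.68 in the islets. It was 2.14-fold higher on arrays that did not overlap (log2 1.10 ± 0.24 SE, limma adjusted p = 0.00417). Nfkbib and Nfkbie, further cytoplasmic inhibitors, differed by -0.32 and 0.09.

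The calls of Nfkb2 and Nfkbiz ended when islet array 1 or 2 was left out (limma adjusted p = 0.130 or 0.204 for Nfkb2 and 0.164 or 0.0733 for Nfkbiz). Rela and Relb passed, lower in the clusters, when arrays were scaled over probes well above background on all arrays or when limma was run with a variance trend and robust fitting, and Relb and Nfkbib also passed under quantile normalization.

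The cIAPs and Icam1 complete the set, with 2 of 3 lower. Birc2, which encodes cIAP1, had 2.05 and 1.87 in the clusters, against 1.85 and 1.73 in the islets, and did not pass (log2 0.17 ± 0.23 SE, limma adjusted p = 0.556). Birc3 (chr9:7854409-7854468, mm9), which encodes the NF-κB-induced cIAP2, had -0.64 and -0.81 in the clusters, against 0.40 and 0.77 in the islets. It was lower on both cluster arrays (log2 -1.32 ± 0.24 SE, limma adjusted p = 0.00152), a call that ended without islet array 2 (limma adjusted p = 0.104).

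Icam1 (chr9:20832290-20832349, mm9), the adhesion molecule by which leukocytes bind to endothelium and a textbook NF-κB target, had -6.75 and -7.23 in the clusters, against 0.08 and -0.50 in the islets. It was not well above background on either cluster array. Against the floor it was at least 32.0-fold lower there (log2 difference of measured values -6.78 ± 0.29 SE, limma adjusted p = 7.93e-08). Vcam1, the adhesion molecule most often induced with it, ran the other way, with 5.23 and 5.01 in the clusters, against 3.13 and 2.78 in the islets (log2 2.16 ± 0.24 SE). Endothelial markers were lower beside Icam1, with all 6 passing in that direction. They summed to 3.56 and 2.89 in the clusters and to 14.9 and 14.9 in the islets, and Cdh5, Tek, Tie1 and Robo4 were not well above background in the clusters. The part of endothelial cells in the result was not tested. With normexp correction the difference of Icam1 was -2.59.

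Several genes were measured by more than 1 probe, and the probes did not always agree. Of the 59 genes tested, 18 had several probes that passed the filter on dim signals. In 5 of them the differences of the probes lay within 0.5 of each other, in 8 they were more than 1 apart, and in 3 (Tnfrsf9, Tnfrsf23 and Nfkbib) they had opposite signs. Which transcripts the probes of a gene detect was not analysed here.

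**Figure D3:**
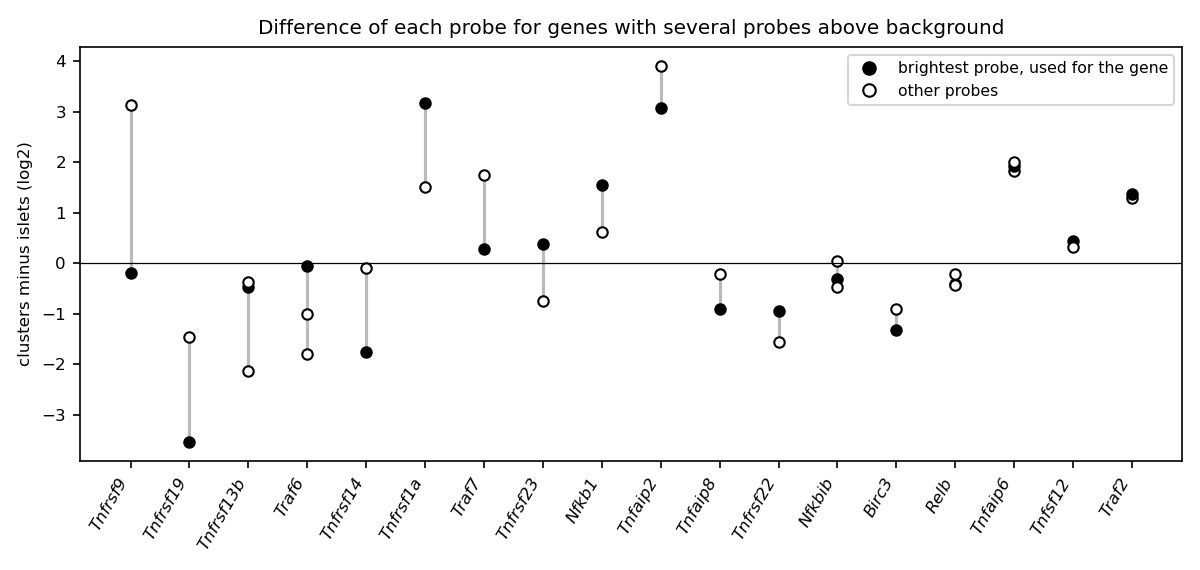
Log2 difference (clusters minus islets) of each probe for the 18 genes with several probes above background, with the brightest probe filled and the others open. The probes of Tnfrsf9 lie furthest apart, at -0.19 and 3.13, and those of Traf2 closest, at 1.37 and 1.29. The second Traf2 probe has overlapping groups, with -1.40 and 0.87 on the cluster arrays.

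Other genes of the pathway, given by lists, showed how the rest of the route was placed. Of 33 adaptors, kinases and regulators downstream of the receptors, 7 were higher, 10 lower and 16 did not pass, so 51.5% were called against 54.8% of all genes. The median was -0.15. Ripk3, the kinase of necroptosis, rose the most, with 3.64 and 3.37 in the clusters, against 1.00 and 0.82 in the islets (log2 2.59 ± 0.24 SE). Xiap, a caspase inhibitor, was higher by 1.39, Tank, a Traf-binding scaffold, by 1.31 and Map3k14, the NF-κB-inducing kinase of the noncanonical pathway, by 0.98.

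Rnf31, the catalytic subunit of the linear ubiquitin ligase, was lowest in difference, with 1.26 and 1.00 in the clusters, against 3.49 and 3.83 in the islets (log2 -2.53 ± 0.25 SE). Its partners in that complex did not pass, with -0.22 for Rbck1 and -0.04 for Sharpin. Edaradd, the adaptor of the ectodysplasin receptor Edar, was lower by 2.19. Cflar, the caspase-like inhibitor of death receptor signals, was lower by 1.28, although the mean of the Cflar probes was 0.16. Averaging probes also gave 0.35 for Map3k14 (limma adjusted p = 0.224), and normexp correction gave -0.99 for Edaradd. The IκB kinase genes gave 0.49 for Chuk, -0.64 for Ikbkb and 0.50 for Ikbkg, with a limma adjusted p of 0.0478 for Ikbkb and no call for the other 2. The call of Ikbkb ended in each fit that left out 1 array, with the replicate block, under both other filters on dim probes and under scaling to the array median, where Chuk and Ikbkg passed instead. The count of 17 called genes fell to 6 and 5 when islet array 1 or 2 was left out, Map3k14 losing its call in both fits, Tank without islet array 1, and Xiap and Cflar without islet array 2.

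Of 8 TNF family genes whose names fall outside the naming rule, 6 were tested. Relt (log2 1.78, with 1 of the 2 islet arrays well above background), another ectodysplasin receptor, Eda2r (0.70), and Ltbr (0.65) were higher. Cd27 (-1.80) was lower, and Eda (0.48) and Ngfr (0.05) did not pass. Cd70 and Edar were not well above background on any array. Each fit that left out 1 array kept 2 of these 4 calls, Relt and Cd27, and with normexp correction Relt did not pass and Cd27 differed by -0.82.

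Of 30 textbook NF-κB target genes, 28 were tested. Of these, 17 were higher (60.7%, against 26.6% of all genes), 6 were lower (21.4%, against 28.2%) and 5 did not pass. So 82.1% were called, against 54.8% of all genes, with a median of 1.47. The list was chosen with earlier results of these data known, and it leaves out the 67 genes described above. Of those described as NF-κB targets or NF-κB-induced, Icam1 (-6.78), Traf1 (-1.88), Birc3 (-1.32) and Tnfaip3 (-1.08) were lower. Nfkbia (-0.24) did not pass. The rest of the 67 genes were not sorted into targets and other genes, so these do not show how targets among them went as a set. Of the 7 tested Tnfaip genes, named for their induction by TNF, 2 were higher and 4 lower. Among the 28 listed targets, the 4 with the largest rise were the acute-phase gene Saa3 (log2 12.02), the prostaglandin synthase Ptgs2 (7.66) and the cytokine genes Il1a (6.52) and Il6 (5.86). Il1a was well above background on 1 of the 2 islet arrays, so its difference rests partly on a dim value. Those lowest were the growth factor gene Csf2 (at least 3.49-fold lower against the floor), Myc (-2.06), the stress gene Gadd45b (-1.79) and the interferon regulator Irf1 (-1.63). With normexp correction Il1a differed by 3.18, less than Il6 (5.85), and Csf2 by -0.56. Il6 differed by 4.44 with non-uniform spots kept and by 4.43 in the authors' values. Without islet array 1 or 2 Saa3 differed by 11.04 or 13.00 and Il1a by 5.31 or 7.73.

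Per the labels no sample was treated with a stimulus or an inhibitor of NF-κB, and NF-κB activity itself was not measured.

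**Figure D4:**
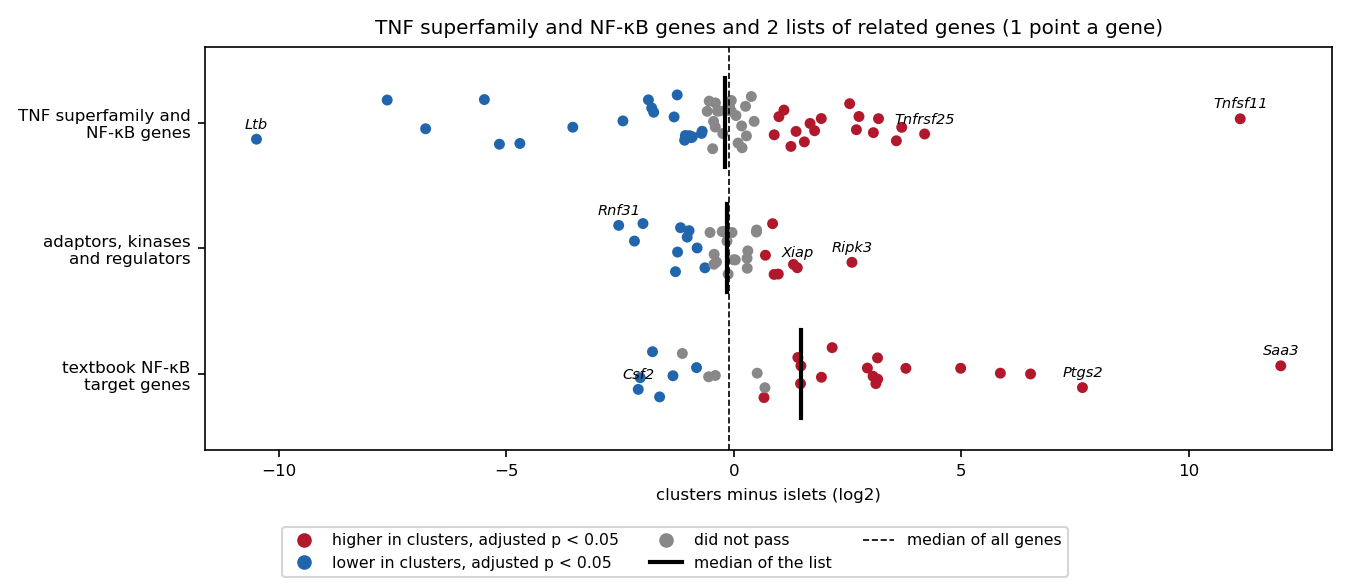
Log2 difference (clusters minus islets) of each gene tested, 1 point a gene, for the TNF superfamily and NF-κB genes and for 2 lists of related genes, with the median of each list (solid) and of all genes (dashed, -0.10). The textbook targets have a median of 1.47, and the other rows have medians of -0.19 and -0.15. The list of textbook targets leaves out targets that belong to the first row, such as Icam1 and Traf1.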

How the data were processed

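The 4 samples were measured on 1-colour Agilent mouse arrays from Cy3-labelled RNA (500 ng of total RNA each). The deposited scanner files give intensity per spot and the software's flags, made with Agilent Feature Extraction 11.5.1.1 per the file headers, which also place the probes on mm9. The authors' value table holds log2 values and served as an alternative. Intensity here is the processed signal, background-subtracted per the file headers. It was taken to log2 and centred, array by array, on its 75th percentile. Control and non-uniform spots were left out, and spots of a probe were averaged. Of 55681 probes, 490 lacked a value on an array and were dropped. A probe was kept if both arrays of the clusters or both arrays of the islets were well above background (34974 probes), and each gene was read from its probe with the highest mean over the 4 arrays (24596 genes).

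Groups were set from the sample titles and compared, as clusters minus islets, by limma (version 3.58.1, R version 4.3.3; lmFit, then eBayes, 2-sided and without covariates), with Benjamini-Hochberg adjustment over all genes and a threshold of 0.05. The fit had 9.06 degrees of freedom in all. The script was tested on simulated data. Where neither array of a group showed any probe of a gene well above background, the fold is a bound against a floor, written "at least". It divides the bright group's mean by a floor for the dim group: per array, the lowest well-detected signal, or the probe's own signal if that is higher. The floor is not a detection limit, as some probes above it were not well above background. The bound holds for the processed signal only, and normexp correction gave smaller differences. All 4 arrays share 1 slide and 1 scan. Whether the replicate numbers pair the samples is not stated in the labels. The deviations of equal replicate numbers correlated at -0.023 between the groups, which cannot settle pairing with 2 arrays a group.

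Of the 67 genes, 65 matched RefSeq by accession with the same symbol. The members, the related lists and the markers were chosen with earlier results of these data known. All members may be named. Values per array are given, by role, for up to 4 called genes in each direction and for a fixed set of core genes. From each related list up to 4 called genes in each direction are named, and Rbck1, Sharpin, the IκB kinase genes and Vcam1 were added after their values were seen. Precision is limited by there being 2 arrays a group. The 15 alternatives covered background correction, scaling, filters, probe averaging, fitting, a replicate block, the authors' values and leaving out each array.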

Additional observations from a re-analysis of the deposited data

How the results depend on the processing

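Of the 59 genes tested, 36 had the same outcome, passing or not passing, in all 15 alternatives that could test them. The other 23 either lost or gained a call in some alternative. Calls were lost by Tnfsf14, Tnfrsf4, Tnfrsf11a, Tnfrsf12a, Tnfrsf22, Traf2, Traf3, Traf3ip1, Tnfaip1, Tnfaip3, Tnfaip8, Nfkb2, Nfkbiz and Birc3. No called TNF or NF-κB gene changed sign. Calls numbered 35 to 43 in the alternatives that kept all 4 arrays and tested all 59 genes. With only probes well above background on all arrays 50 could be tested, 30 were called, and none of the 38 that could be tested lost its call. Calls numbered between 25 (without islet array 2) and 34 when 1 array was left out. Calls over all genes, 13490, became between 7650 and 10120 when 1 array was left out. Calls among adaptors, kinases and regulators, 17, became between 5 and 12, and those among the textbook targets, 23, between 18 and 21. The 4 calls among TNF family genes outside the naming rule became 2 in each fit without 1 array, 2 with normexp correction, 2 with no filter on dim probes and 2 with the replicate block. With the replicate block, 35 TNF and NF-κB genes and 11307 genes in all were called. Among the genes of the TNF and NF-κB families the block ended the calls of Tnfaip1, Tnfrsf11a, Tnfrsf22, Ltbr and Eda2r. Averaging the probes of a gene reversed Tnfrsf9 to 1.47 and Cflar to 0.16. Which of their probes is right was not tested. Normexp correction moved 18 of the 38 called genes by more than 1.5 times and ended 2 calls. Scaling to the array median shifted the median of all genes by 0.20, and scaling over probes well above background on all arrays shifted it by -0.19. They gave 19 higher and 17 lower, and 18 higher and 25 lower, TNF and NF-κB genes. Differences under about 1 log2 unit are limited by these shifts and by 2 arrays a group.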
